A study of Mus musculus with 16 samples.

Results

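The 10 genes described here are the forkhead transcription factors Foxo1, Foxo3 and Foxo4, the insulin receptor Insr, the insulin-like growth factor 1 receptor Igf1r, the docking proteins Irs1 and Irs2, and 3 growth-arrest genes under FOXO control, Ccng2, Sesn3 and Ypel3. They were taken by symbol from a count table of 55487 genes, and all 10 passed the filter on low counts with 24252 genes in all. RNA was sequenced from 16 mouse mammary organoid cultures of 4 genotypes: WT (n = 3), PIK3CA mutant (H1047R, n = 4), HER2 mutant (V777L, n = 4) and the double mutant with both alleles (n = 5). By their labels the WT cultures came from normal breast and all mutant cultures from breast tumors, so in each comparison with WT the genotype and the source cannot be told apart. All cultures shared a medium of advanced DMEM/F12 with penicillin and streptomycin, HEPES, Glutamax, B27 (a supplement that contains insulin), N-acetyl-cysteine, epidermal growth factor and Rspo1- and Noggin-conditioned medium. The labels used here do not name the promoter or Cre line behind the alleles, the age of the mice, or whether a culture came from 1 animal, so p-values measure only the spread between these cultures.

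Insulin and IGF1 bind INSR and IGF1R, which phosphorylate IRS1 and IRS2; these recruit phosphoinositide 3-kinase (PI3K), and PI3K activates the kinase AKT. AKT phosphorylates FOXO proteins, which then bind 14-3-3 proteins and leave the nucleus. When the pathway is quiet, FOXO proteins stay in the nucleus and raise transcription of growth-arrest genes and of several receptors and docking proteins, a feedback loop that makes the cell more receptive to insulin. The H1047R change activates the PI3K catalytic subunit p110-alpha, and HER2, the receptor tyrosine kinase encoded by Erbb2, signals through PI3K in mammary epithelium. Read counts measure transcripts, and show neither the phosphorylation nor the location of a FOXO protein.

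Stretches of promoter are shown for the docking proteins and the growth-arrest genes, as examples of genes that FOXO factors are known to raise. They are from RefSeq (GRCm38.p6) and run 5′ to 3′ on the gene's strand, and capitals mark letters of a forkhead core. For Irs1, Irs2, Ccng2 and Sesn3 the 250 bases before the start of transcription are given; for Ypel3, 30 bases around a match after the start are given.
Irs1 (chr1:82291440-82291689, minus strand): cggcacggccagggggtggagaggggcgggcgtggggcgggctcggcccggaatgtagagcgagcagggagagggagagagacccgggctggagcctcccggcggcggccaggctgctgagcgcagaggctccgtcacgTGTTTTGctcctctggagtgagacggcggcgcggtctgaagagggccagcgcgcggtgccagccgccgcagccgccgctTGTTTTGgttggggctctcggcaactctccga
Irs2 (chr8:11008930-11009179, minus strand): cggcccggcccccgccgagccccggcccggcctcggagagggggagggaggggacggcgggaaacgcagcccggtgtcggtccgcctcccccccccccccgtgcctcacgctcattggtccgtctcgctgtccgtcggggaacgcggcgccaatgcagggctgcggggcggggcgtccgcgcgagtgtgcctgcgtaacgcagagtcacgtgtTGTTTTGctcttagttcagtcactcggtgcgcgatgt
Ccng2 (chr5:93267323-93267572, plus strand): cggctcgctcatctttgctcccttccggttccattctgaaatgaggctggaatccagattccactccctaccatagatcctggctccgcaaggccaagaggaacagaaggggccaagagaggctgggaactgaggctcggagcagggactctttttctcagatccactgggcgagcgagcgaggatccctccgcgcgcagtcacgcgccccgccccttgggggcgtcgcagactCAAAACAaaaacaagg
Sesn3 (chr9:14276051-14276300, plus strand): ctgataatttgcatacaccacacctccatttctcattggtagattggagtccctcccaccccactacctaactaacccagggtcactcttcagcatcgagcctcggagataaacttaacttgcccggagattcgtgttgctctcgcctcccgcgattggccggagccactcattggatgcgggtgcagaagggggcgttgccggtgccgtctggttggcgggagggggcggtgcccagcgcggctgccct
Ypel3 (chr7:126776977-126777006, plus strand): ctggtctcggtGTAAACAagtcgaggcggc

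Both strands were searched, from 250 bases before to 50 bases after the start, for the word GTAAACA, the word ATAAACA and the word CAAAACA; they do not contain each other. Irs1 held CAAAACA on the opposite strand (printed as TGTTTTG) with its leftmost base at -111 and again at -32 from the start. Irs2 held it on the opposite strand at -37, and Ccng2 held it on the gene's strand at -16. Ypel3 held GTAAACA on the gene's strand at 26 bases after the start, and Foxo1, Foxo3, Igf1r and Sesn3 held none of the 3 words in this window. Of 32851 RefSeq promoters of this length, 13.5% held any of the words, and 3.65%, 4.6% and 6.28% held each in the order given. Foxo4 and Insr had no entry. A match is a run of letters and no measured binding.

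The libraries held 45545182 to 64168308 gene counts, and the lowest count of any member in any library was 1170. Erbb2 was at 156 ± 13.1 CPM (read counts over the TMM-adjusted library size; mean ± SD) in WT, 168 ± 16.1 in the PIK3CA mutant, 3600 ± 803 in the HER2 mutant and 2031 ± 639 in the double mutant, high in the 2 genotypes labelled with the HER2 allele. Pik3ca was at 81.3 ± 4.996, 101 ± 8.67, 66.99 ± 5.37 and 115 ± 4.88 CPM in the same order, and counts do not show a point mutation. Luminal markers summed to 2475 to 2740 CPM in WT and 2315 to 3282 in the HER2 mutant. They summed to 3500 to 4079 CPM in the PIK3CA mutant and 3199 to 5239 in the double mutant. Basal markers summed to 473 to 1019 CPM in WT, 502 to 1375 in the PIK3CA mutant and 555 to 1021 in the double mutant. In the HER2 mutant they were at 972 CPM in replicate 1 and 260.2 to 381 in replicates 2 to 4. The part of luminal or basal cells in the member differences was not tested. Macrophage markers summed to 1035 to 3552 CPM in WT, 610.0 to 773 in the PIK3CA mutant, 272 to 451 in the HER2 mutant and 240.0 to 425 in the double mutant. Fibroblast markers summed to 367 to 1975, 68.3 to 495, 35.4 to 650.3 and 27.7 to 61.5 CPM in the same order.

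Within 2 genotypes the libraries stood apart in a principal component analysis of all tested genes. HER2 mutant replicates 1 and 4 lay at -104.9 and -65 on the third component (12.6% of the variance) and replicates 2 and 3 at 50.1 and 27.2. Double mutant replicates 2 and 3 lay at 34.8 and 63.4 on that component, and the other double mutant libraries at -40.4 to -16.7. The proliferation gene Mki67, looked at after its values were seen, was at 271 and 107 CPM in HER2 mutant replicates 1 and 4 and at 34.3 and 31.2 in replicates 2 and 3. In double mutant replicates 2 and 3 Mki67 was at 52.8 and 32.4 CPM, against 78.1 to 140.1 in the other double mutant libraries. Values without these libraries are given below beside the calls and differences they changed most; the part of proliferation in them was not tested.

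Of the 10 members, 6 differed between at least 1 pair of genotypes at an adjusted p under 0.05 (edgeR quasi-likelihood test, Benjamini-Hochberg adjustment over all 24252 genes). Ypel3 passed in 4 of the 6 pairs, Foxo3 and Sesn3 in 3, Foxo1 in 2, and Insr and Irs1 in 1, while Foxo4, Igf1r, Irs2 and Ccng2 passed in none. Against WT, 1 of 10 members passed in the PIK3CA mutant, where 4.52% of all genes passed. In the HER2 mutant 2 of 10 passed, against 10.4% of all genes, and in the double mutant 3 of 10, against 11.8%. Between mutants, 3 of 10 passed in the double mutant against the HER2 mutant (2.50% of all genes), 2 of 10 in the double mutant against the PIK3CA mutant (0.672%) and 3 of 10 in the HER2 mutant against the PIK3CA mutant (4.41%). The median log2 fold change of the members was 0.30, 0.04 and -0.20 in the PIK3CA, HER2 and double mutants against WT, beside -0.03, 0.03 and 0.01 for all tested genes. It was -0.32 in the double mutant against the HER2 mutant, -0.51 against the PIK3CA mutant and -0.20 in the HER2 mutant against the PIK3CA mutant, beside -0.02, 0.04 and 0.07 for all tested genes.

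By the samples themselves, without a model, 5 of 10 members had every PIK3CA mutant library above every WT library, beside 29.5% of all genes without overlap in either direction. In the HER2 mutant 3 were above and 2 below all WT libraries (22.2% of all genes), and in the double mutant 1 was above and 5 below (23.0%). Between mutants, the double mutant had 1 member wholly above and 2 wholly below the HER2 mutant (4.59% of all genes) and 5 wholly below the PIK3CA mutant (7.92%), and the HER2 mutant had 3 wholly below the PIK3CA mutant (12.5%). The 5 below the PIK3CA mutant were Foxo4, Insr, Igf1r, Sesn3 and Ypel3, of which Insr and Ypel3 passed the test.

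**Figure D1:**
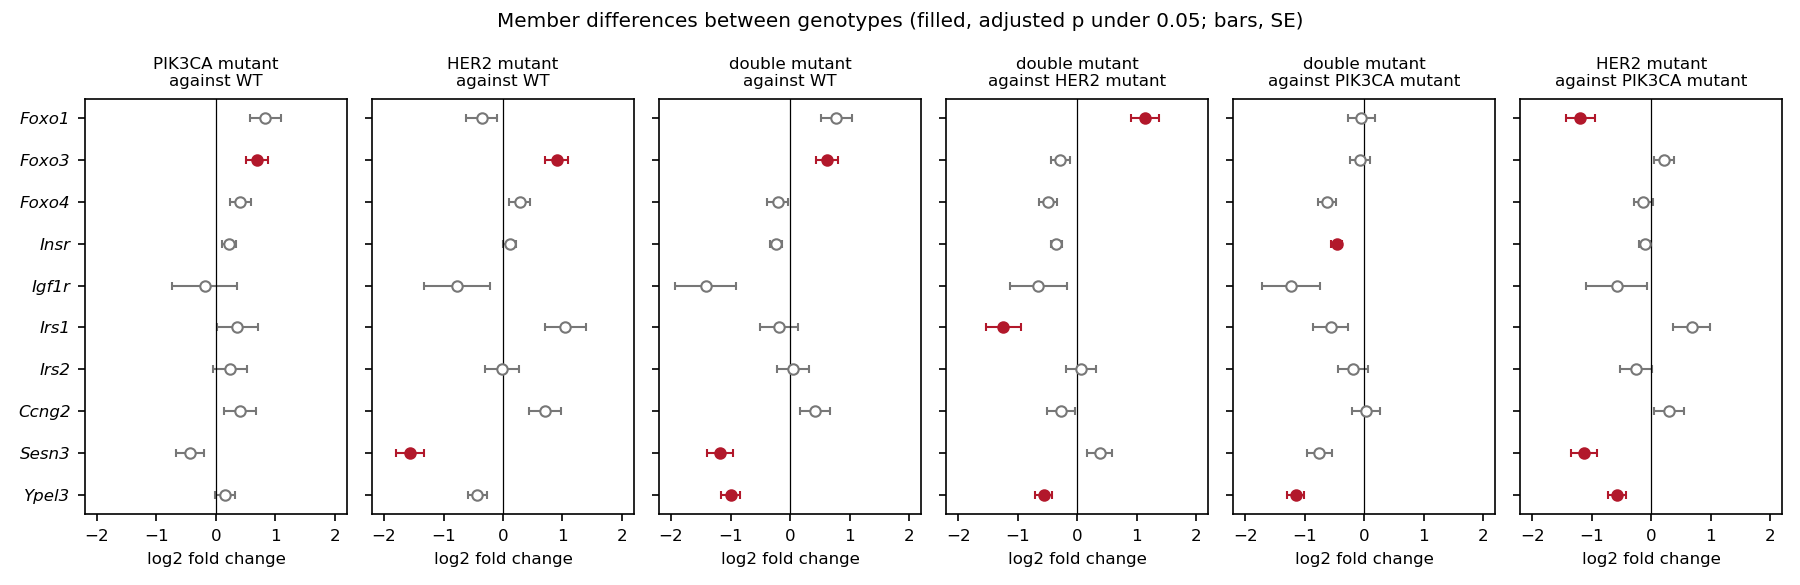
Log2 fold change of each member in the 6 comparisons of genotypes, with the SE as a bar; filled red points passed the test at an adjusted p under 0.05 and open points did not. Ypel3 lay to the left of 0 in every panel but the first, and Foxo1 lay at 1.14 in the double mutant against the HER2 mutant and at -1.19 in the HER2 mutant against the PIK3CA mutant.

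Foxo1 (ENSMUSG00000044167, chromosome 3, 52268336 to 52353221, plus strand) is the factor best known for insulin-controlled gene expression. Its transcripts were high in both genotypes with the PIK3CA allele and low in WT and the HER2 mutant. The level was 199.5, 291 and 207 CPM in WT, and 439, 368, 419 and 423 in the PIK3CA mutant. It was 202, 220.4, 183 and 118 CPM in the HER2 mutant, and 267, 289, 367, 552 and 521 in the double mutant (replicates 1 to 5). Every library of the PIK3CA mutant and of the double mutant was above every library of the HER2 mutant. Foxo1 was 2.28-fold lower in the HER2 mutant than in the PIK3CA mutant (log2 fold change -1.19, SE 0.242, adjusted p = 0.0131) and 2.21-fold higher in the double mutant than in the HER2 mutant (log2 fold change 1.14, SE 0.233, adjusted p = 0.0194). Against WT it had a log2 fold change of 0.83 in the PIK3CA mutant (SE 0.263, adjusted p = 0.0958), where the groups did not overlap, and 0.78 in the double mutant (SE 0.254, adjusted p = 0.0579), where they did; neither passed. Under alternatives the first passed with an offset for GC content and length (1.01, adjusted p = 0.0279) and when only those genotypes were fitted (adjusted p = 0.00671). The other passed with the offset (adjusted p = 0.0103), with DESeq2 (adjusted p = 0.03), in 3 fits with a single library left out (adjusted p = 0.0499, 0.0287 and 0.0425) and without double mutant replicates 2 and 3 (0.94, adjusted p = 0.0448). Between the double and the PIK3CA mutant the log2 fold change was -0.05 (SE 0.227, adjusted p = 0.964).

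Without double mutant replicate 4 or 5, the 2 libraries with the highest Foxo1, the difference between the double and the HER2 mutant was 1.00 (adjusted p = 0.0502) and 1.03 (adjusted p = 0.0506), and without HER2 mutant replicates 1 and 4 it was 0.99, adjusted p = 0.0719. Without those HER2 mutant replicates the difference between the HER2 and the PIK3CA mutant was -1.03, adjusted p = 0.0503. Over all alternatives the adjusted p of these differences ran from 0.000407 to 0.125 and from 0.000369 to 0.0503. Foxo1 shares 674 exon bases with the antisense gene Gm20402, which had 0 to 2 counts in a library.

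Foxo3 (ENSMUSG00000048756, chromosome 10, 42181841 to 42276755, minus strand) encodes another widely expressed factor, and its transcripts were higher in every mutant library than in every WT library. WT libraries had 202, 198 and 206 CPM. The PIK3CA mutant had 278, 293, 344 and 392, the HER2 mutant 316, 395, 435 and 364 and the double mutant 236, 387, 386, 273 and 272. The WT values lay within 1.04-fold of each other. Foxo3 rose 1.62-fold in the PIK3CA mutant (log2 fold change 0.69, SE 0.187, adjusted p = 0.0447), 1.87-fold in the HER2 mutant (log2 fold change 0.90, SE 0.188, adjusted p = 0.00797) and 1.54-fold in the double mutant (log2 fold change 0.62, SE 0.179, adjusted p = 0.0336). No pair of mutants differed at an adjusted p under 0.05, with log2 fold changes of -0.28, -0.07 and 0.21. The rise in the HER2 mutant held when each library was left out in turn (adjusted p 0.000361 to 0.042 over all alternatives).

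The call in the PIK3CA mutant was lost when any single library of the 7 was left out (adjusted p 0.0504 to 0.168, log2 fold change 0.60 to 0.78). In the double mutant it was lost without WT replicate 1, 2 or 3 (adjusted p 0.111, 0.096 and 0.12) or double mutant replicate 2 or 3 (0.0726 and 0.0669), and without both of these the log2 fold change was 0.37, adjusted p = 0.156. Those 2 libraries were at 387 and 386 CPM, and the other 3 at 236 to 273. Without them the difference between the double and the HER2 mutant was -0.54, adjusted p = 0.0485. Leaving out the highest libraries lowers a group by itself, so that fit does not show a difference between the genotypes.

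Foxo4 (ENSMUSG00000042903, chromosome X, 101254528 to 101260873, plus strand), the factor with the lowest level per length, passed in no comparison. It was at 39.7 to 40.9 CPM in WT, 46.8 to 57.8 in the PIK3CA mutant, 37.7 to 70.4 in the HER2 mutant and 30.7 to 38.5 in the double mutant. All PIK3CA mutant libraries were above all WT libraries (log2 fold change 0.41, SE 0.18, adjusted p = 0.249), and all double mutant libraries were below all WT libraries (log2 fold change -0.21, SE 0.17, adjusted p = 0.463). The double mutant was also below the PIK3CA mutant in every library (log2 fold change -0.62, SE 0.156, adjusted p = 0.0848), and DESeq2 gave an adjusted p of 0.0312 for that difference. HER2 mutant replicate 1 stood alone at 70.4 CPM, with the other 3 libraries at 37.7 to 46.7.

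**Figure D2:**
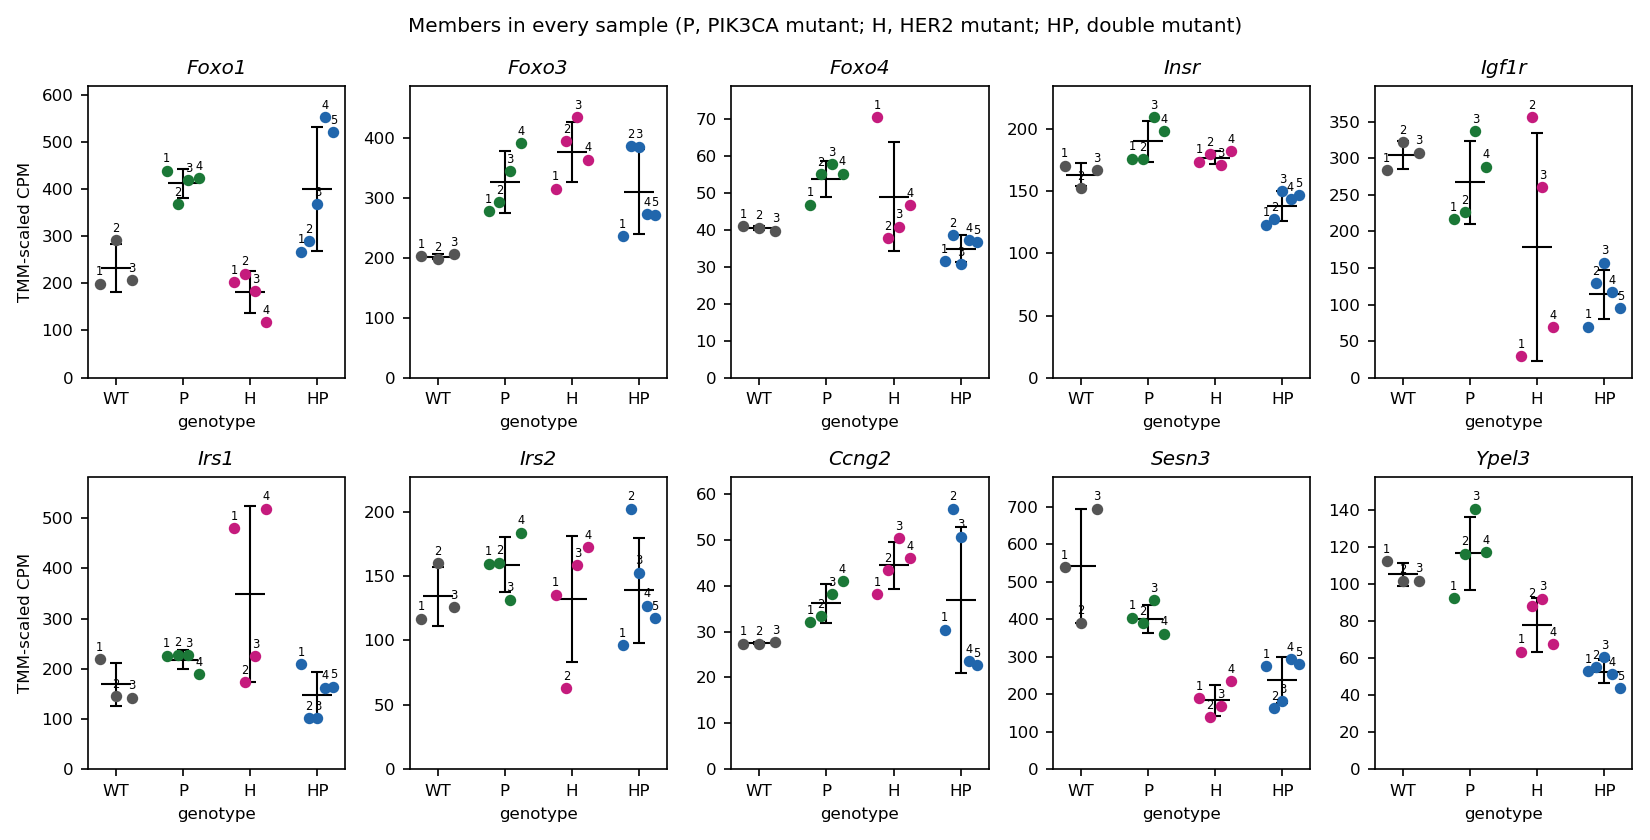
TMM-scaled CPM of each member in the 16 samples on linear axes from 0, by genotype (P, PIK3CA mutant; H, HER2 mutant; HP, double mutant); points are samples with their replicate number, and the black mark and bar are the mean and SD. Foxo1 is highest in P and HP, Sesn3 lowest in H and HP and Ypel3 lowest in HP, at 43.6 to 60.3 CPM, while Igf1r and Irs1 split the 4 HER2 mutant samples.

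Insr (ENSMUSG00000005534, chromosome 8, 3122061 to 3279617, minus strand), the receptor for insulin, was lowest in the double mutant. The level was 171, 153 and 167 CPM in WT and 176, 176, 209.7 and 199 in the PIK3CA mutant. It was 174, 179.8, 171 and 183 in the HER2 mutant and 123, 128, 150.3, 144 and 147 in the double mutant, where all 5 libraries lay below every library of the other 3 genotypes. Insr was 1.37-fold lower in the double than in the PIK3CA mutant (log2 fold change -0.46, SE 0.0963, adjusted p = 0.0449). Against the HER2 mutant the log2 fold change was -0.35 (SE 0.0963, adjusted p = 0.0604) and against WT -0.24 (SE 0.105, adjusted p = 0.149); the sign of this last value turned with an offset for GC content and length (0.03). The call was lost in 8 of 9 fits with a library left out, the exception being the fit without double mutant replicate 3; the log2 fold change in those 8 was -0.50 to -0.41 and the adjusted p 0.0811 to 0.198. Without double mutant replicates 2 and 3 it was -0.46, adjusted p = 0.0564. Over all alternatives the adjusted p ran from 0.000829 to 0.295.

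Igf1r (ENSMUSG00000005533, chromosome 7, 67952827 to 68233668, plus strand), the receptor for insulin-like growth factors, varied more between libraries of the HER2 mutant than any other member did within a genotype. WT had 284, 322 and 308 CPM and the PIK3CA mutant 217, 226, 337 and 289. The HER2 mutant had 29.6, 356, 260.4 and 68.9 in replicates 1 to 4, a 12.1-fold range, and the double mutant 69.9, 129, 157, 117 and 95.2. HER2 mutant replicates 2 and 3 were within the range of WT and the PIK3CA mutant or near it, and replicates 1 and 4 had less than any other library. Every double mutant library was below every library of WT (log2 fold change -1.42, SE 0.518, adjusted p = 0.0885) and of the PIK3CA mutant (log2 fold change -1.23, SE 0.486, adjusted p = 0.304), and neither difference passed the test. In the fits of only the 2 genotypes compared, both passed, with an adjusted p of 0.00336 against WT and 0.0236 against the PIK3CA mutant.

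The sign of the Igf1r difference between the double and the HER2 mutant depended on which HER2 mutant libraries entered. With all 4 it was -0.65 (SE 0.485, adjusted p = 0.536), without replicates 1 and 4 it was -1.44, adjusted p = 0.00768, and without replicates 2 and 3 it was 1.21, adjusted p = 0.0427. Against WT the HER2 mutant differed by 0.02, adjusted p = 0.976 without replicates 1 and 4, and by -2.63, adjusted p = 0.00101 without replicates 2 and 3. These subsets follow the third principal component of all genes and are not genotypes.

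Irs1 (ENSMUSG00000055980, chromosome 1, 82233101 to 82291416, minus strand) is the docking protein through which both receptors reach PI3K. WT had 219, 146 and 142 CPM, and the PIK3CA mutant 226, 228, 227 and 189. The HER2 mutant had 480, 174, 225 and 519 in replicates 1 to 4, and the double mutant 208, 102, 102, 162 and 164. HER2 mutant replicates 1 and 4, the libraries with the least Igf1r, had the most Irs1 of all 16, and replicates 2 and 3 lay within the range of the other genotypes. Double mutant replicates 2 and 3 had the least. Irs1 was 2.37-fold lower in the double than in the HER2 mutant (log2 fold change -1.24, SE 0.298, adjusted p = 0.0409), although the groups overlapped. The HER2 mutant differed from WT by 1.05 (SE 0.349, adjusted p = 0.0675), which did not pass. That value was 0.24 (adjusted p = 0.619) without HER2 mutant replicates 1 and 4 and 1.56 (adjusted p = 0.00315) without replicates 2 and 3. It passed with DESeq2 (adjusted p = 0.0319), with upper-quartile scaling (adjusted p = 0.0492) and with the offset for GC content and length (adjusted p = 0.0329). Against the PIK3CA mutant the HER2 mutant differed by -0.13 (adjusted p = 0.834) without replicates 1 and 4 and by 1.20 (adjusted p = 0.0131) without replicates 2 and 3. Replicates 2 and 3 had the least Irs1 of the HER2 mutant, and leaving out the lowest libraries raises a group by itself. The fits without them therefore do not show a difference between the genotypes.

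The difference between the double and the HER2 mutant was -0.43, adjusted p = 0.404 without HER2 mutant replicates 1 and 4, and -0.97, adjusted p = 0.0998 without double mutant replicates 2 and 3. Leaving out 1 library also ended the call for HER2 mutant replicate 1 (-1.05, adjusted p = 0.0829) or 4 (-0.99, adjusted p = 0.0951) and double mutant replicate 2, 3, 4 or 5 (-1.28 to -1.13, adjusted p 0.0685 to 0.0786), with 0.00125 to 0.404 over all alternatives. Irs1 shares 2822 exon bases with Gm9747 on the opposite strand, which was listed at 0 in all 16 libraries; whether counting used the strand is not given in the sources used here.

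Irs2 (ENSMUSG00000038894, chromosome 8, 10984681 to 11008458, minus strand), the other docking protein and the one most often described as raised by FOXO factors, passed in no comparison and had overlapping groups in all 6. It ranged over 117 to 160.1 CPM in WT, 132 to 184 in the PIK3CA mutant, 62.8 to 172 in the HER2 mutant and 96.1 to 202 in the double mutant. Its lowest value was in HER2 mutant replicate 2 and its highest in double mutant replicate 2. The log2 fold changes were -0.26 to 0.24, with SEs of 0.253 to 0.290, and the lowest adjusted p was 0.646.

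**Figure D3:**
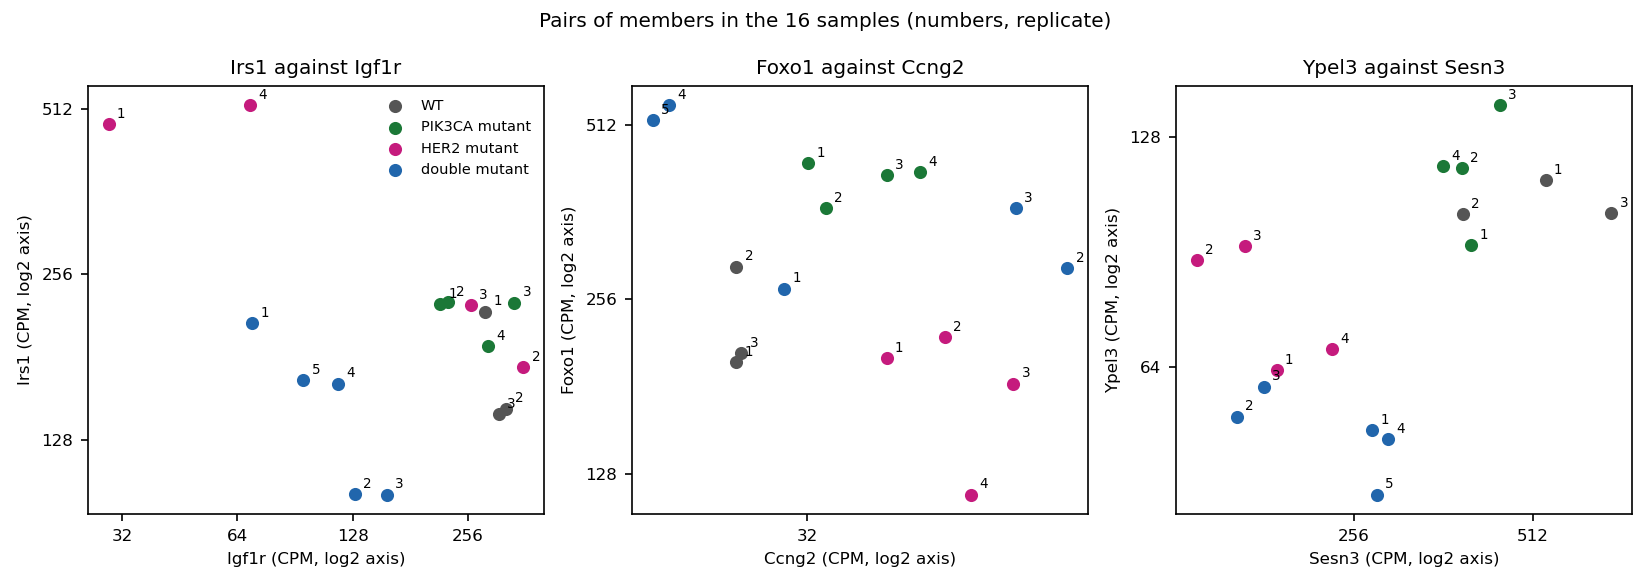
Pairs of members in the 16 samples, in TMM-scaled CPM on log2 axes; colors give the genotype and numbers the replicate. HER2 mutant replicates 1 and 4 sit alone at the upper left of the first panel, with Irs1 at 480.0 and 519 and Igf1r at 29.6 and 68.9, and double mutant replicates 2 and 3 sit at the right of the second panel, with Ccng2 at 56.8 and 50.7.

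Sesn3 (ENSMUSG00000032009, chromosome 9, 14275067 to 14333101, plus strand), a sestrin that restrains mTORC1 and is induced by FOXO factors, was lower in both genotypes with the HER2 allele. WT had 538, 390.3 and 694 CPM, and the PIK3CA mutant 404, 389, 450.2 and 361. The HER2 mutant had 189.8, 139, 168 and 235 and the double mutant 275, 163, 180.5, 293 and 280. No library of the HER2 mutant or the double mutant reached the lowest WT or PIK3CA mutant library. Sesn3 fell 2.96-fold in the HER2 mutant (log2 fold change -1.56, SE 0.237, adjusted p = 0.00143) and 2.27-fold in the double mutant (log2 fold change -1.18, SE 0.222, adjusted p = 0.00279) against WT, and was 2.19-fold lower in the HER2 than in the PIK3CA mutant (log2 fold change -1.13, SE 0.223, adjusted p = 0.0111). Against the PIK3CA mutant, the double mutant was lower in every library but did not pass (log2 fold change -0.75, SE 0.208, adjusted p = 0.126). The PIK3CA mutant itself differed from WT by -0.43 (SE 0.236, adjusted p = 0.384). All 3 calls held in every fit with 1 library left out. Without HER2 mutant replicates 2 and 3 the difference between the HER2 and the PIK3CA mutant was -0.92, adjusted p = 0.0517.

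The summed macrophage markers were lower in every mutant library than in every WT library. Among the 3 WT libraries, Sesn3 and the summed macrophage markers had the same order, with 390.3, 538 and 694 CPM of Sesn3 beside 1035, 1931 and 3552 CPM of macrophage markers (8 genes). The pan-leukocyte gene Ptprc averaged 22.3 CPM in WT, 0.0962 in the PIK3CA mutant, 1.16 in the HER2 mutant and 0.066 in the double mutant, and the macrophage gene Lyz2 1388, 2.84, 50.3 and 0.177. Both were lower in the PIK3CA than in the HER2 mutant, while Sesn3 averaged 401 and 183 CPM in those genotypes. The part of these cells in the difference from WT was not tested, and in bulk RNA fewer cells of a type and less RNA per cell cannot be told apart. In the HER2 and the PIK3CA mutant the macrophage markers summed to 272 to 451 and 610.0 to 773 CPM. Those sums were mostly Cd14, which averaged 278 and 650.2 CPM. Every other macrophage marker had a higher mean in the HER2 than in the PIK3CA mutant, unlike Sesn3, with Csf1r at 4.34 and 1.41 CPM. The fibroblast gene Pdgfra averaged 18.7 and 45.9 CPM in the HER2 and the PIK3CA mutant. Every other fibroblast marker had a higher mean in the HER2 mutant, with Col1a1 at 144 and 84.5 CPM. The part of such cells in the Sesn3 difference between these mutants was not tested either.

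Ypel3 (ENSMUSG00000042675, chromosome 7, 126776955 to 126780514, plus strand), a small zinc-binding protein linked to growth arrest and senescence, had its lowest levels in the double mutant. WT had 112, 101 and 102 CPM, and the PIK3CA mutant 92.4, 116, 141 and 117. The HER2 mutant had 63.4, 88.2, 92.1 and 67.5 and the double mutant 52.9, 55.1, 60.3, 51.4 and 43.6. Every double mutant library was below every library of the other 3 genotypes, and every HER2 mutant library was below every WT and PIK3CA mutant library. In the double mutant Ypel3 fell 2.0-fold against WT (log2 fold change -1.0, SE 0.153, adjusted p = 0.000693), and it was 2.21-fold lower than in the PIK3CA mutant (log2 fold change -1.15, SE 0.143, adjusted p = 0.00166). It was also 1.48-fold lower than in the HER2 mutant (log2 fold change -0.56, SE 0.143, adjusted p = 0.0493), and the HER2 mutant was 1.5-fold below the PIK3CA mutant (log2 fold change -0.58, SE 0.152, adjusted p = 0.0407). The PIK3CA mutant differed from WT by 0.15 (SE 0.164, adjusted p = 0.716), and the HER2 mutant by -0.43 (SE 0.162, adjusted p = 0.102). HER2 mutant replicates 1 and 4 had less Ypel3 than replicates 2 and 3: without the first pair the difference from WT was -0.22, adjusted p = 0.406, and without the second it was -0.68, adjusted p = 0.0217. Leaving out the highest libraries lowers a group by itself, so the fit without replicates 2 and 3 does not show a difference between the genotypes.

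The calls for the double mutant against WT and against the PIK3CA mutant held under every alternative (adjusted p 1.75e-06 to 0.0119 and 4.51e-09 to 0.0318). The difference from the HER2 mutant was lost without HER2 mutant replicate 2 or 3 or double mutant replicate 1, 2, 4 or 5 (-0.58 to -0.47, adjusted p 0.0675 to 0.106; 0.0135 to 0.245 over all alternatives), and was -0.31, adjusted p = 0.245 without HER2 mutant replicates 2 and 3. The difference between the HER2 and the PIK3CA mutant was lost without PIK3CA mutant replicate 2, 3 or 4 or HER2 mutant replicate 1 or 4 (-0.61 to -0.48, adjusted p 0.0797 to 0.13; 0.00933 to 0.204 over all alternatives), and was -0.37, adjusted p = 0.204 without HER2 mutant replicates 1 and 4.

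Ccng2 (ENSMUSG00000029385, chromosome 5, 93267257 to 93276231, plus strand), an unconventional cyclin that accumulates in cells leaving the cycle and a classical FOXO target, passed in no comparison. WT had 27.4, 27.4 and 27.7 CPM, within 1.01-fold of each other, and the PIK3CA mutant 32.1, 33.3, 38.2 and 41.01. The HER2 mutant had 38.1, 43.4, 50.4 and 45.98 and the double mutant 30.4, 56.8, 50.7, 23.6 and 22.8. All 8 single-mutant libraries were above all WT libraries, with log2 fold changes of 0.40 (SE 0.269, adjusted p = 0.51) in the PIK3CA mutant and 0.70 (SE 0.271, adjusted p = 0.117) in the HER2 mutant. Double mutant replicates 1, 2 and 3 were above WT, at up to 56.8 CPM, and replicates 4 and 5 were below it. Against the HER2 mutant the double mutant differed by -0.27 (SE 0.234, adjusted p = 0.613), and without replicates 2 and 3 by -0.80, adjusted p = 0.0107. Those replicates had the most Ccng2 of the genotype, and leaving out the highest libraries lowers a group by itself. That fit therefore does not show a difference between the genotypes.

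The double mutant was also set against the sum of both single-mutant changes on the log2 scale. No member passed this interaction test with edgeR, where 1.06% of all genes passed, or with limma; 6 members had an unadjusted p under 0.05, as did 13.6% of all genes, and DESeq2 called 4 of 10 members and 3.48% of all genes. Of the 10 values 8 were below 0, so that the double mutant lay under the sum of the single-mutant changes, and the median was -0.62 beside 0.01 for all genes. The farthest from 0 was Irs1 at -1.61 (SE 0.457, adjusted p = 0.108). Foxo3 had -0.97 (SE 0.246, adjusted p = 0.0736), Foxo4 -0.90 (SE 0.238, adjusted p = 0.0859) and Insr -0.57 (SE 0.147, adjusted p = 0.076), and DESeq2 called these 4. Foxo3 rose by 0.69 and 0.90 in the single mutants and by 0.62 in the double mutant. Sesn3, at 0.81, and Foxo1, at 0.32, were above 0. Leaving out double mutant replicates 2 and 3 gave 4 calls, with 998 genes or 4.17% of all called, among them Foxo3 (-1.23, adjusted p = 0.00739) and Ccng2 (-1.20, adjusted p = 0.00739), and leaving out single libraries gave 0 to 2. Those replicates were the highest of the double mutant for Foxo3 and Ccng2, so leaving them out lowers these values by itself. Without HER2 mutant replicates 2 and 3 Irs1 (-2.12, adjusted p = 0.00538) and Foxo4 (-1.16, adjusted p = 0.0113) passed, and without replicates 1 and 4 Foxo3 (-1.11, adjusted p = 0.0464) and Ypel3 (-0.93, adjusted p = 0.0378), beside 3.09% and 1.88% of all genes. For each of these genes the libraries left out were the lowest of the HER2 mutant, so leaving them out also lowers the interaction by itself. Those fits therefore do not show an interaction. The 3 WT libraries enter each of these single-mutant and double-mutant changes. As WT came from normal breast and all mutants from tumors, a change shared by all tumors enters the interaction with the opposite sign. Such a change and an interplay of the alleles cannot be told apart here.

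Levels of different genes are compared here per length, as CPM per kilobase of merged exons averaged over the 16 samples. Ypel3 was highest at 45.9, followed by Foxo3 at 41.1 and Foxo1 at 36.6, and these stood at percentiles 96.9, 96.4 and 95.9 of 24196 tested genes with a length. Irs1 at 24.01, Irs2 at 22.4 and Sesn3 at 21.1 came next, followed by Foxo4 at 12.7, Igf1r at 12.2 and Insr at 12.1. Ccng2 was lowest at 6.75, at percentile 74.4. The order of the means differed by genotype. In WT, Ypel3 was highest at 56.9 ± 3.39 CPM per kilobase (SD). Sesn3 at 35.4 ± 9.95, Foxo1 at 26.8 ± 5.89 and Foxo3 at 26.7 ± 0.554 did not differ beyond their spread. In the double mutant Foxo1 at 46.1 ± 15.2 and Foxo3 at 41.1 ± 9.34 stood above Sesn3 at 15.6 ± 4.02. Their means were also above that of Ypel3, at 28.5 ± 3.303, but not beyond the spread. In the HER2 mutant Foxo3, at 49.9 ± 6.64, had the highest mean, within its spread of Ypel3 at 42.1 ± 7.83, and Foxo1 was at 20.9 ± 5.17. In the PIK3CA mutant Ypel3 had the highest mean, at 63.1 ± 10.7. Foxo3 and Foxo1 had lower means there, at 43.2 ± 6.86 and 47.6 ± 3.57, within their spread of each other.

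Among close relatives of the members, Sesn2 and Ccng1 were higher in every mutant library than in every WT library. Of 10 tested relatives, these 2 passed against WT in the HER2 mutant (10.4% of all genes) and in the double mutant (11.8%) and none in the PIK3CA mutant (4.52%); none passed between the HER2 and the PIK3CA mutant. In the PIK3CA mutant Sesn2 was at 40.3 to 54.4 CPM and Ccng1 at 88.2 to 118, and in the HER2 mutant they were at 35 to 78.2 and 79.8 to 202. Sesn2, the stress-induced sestrin, was at 31.1, 32.1 and 31.7 CPM in WT and 77.2, 72.3, 84.2, 77.6 and 91.2 in the double mutant. It rose in the double mutant (log2 fold change 1.35, SE 0.206, adjusted p = 0.000677), while Sesn3 fell there. Ccng1, the cyclin G induced by p53, also rose in the double mutant (log2 fold change 1.32, SE 0.25, adjusted p = 0.00287), where its level was 201, 203, 137, 145 and 169 CPM beside 61.01, 77.4 and 66.95 in WT. Both passed in the HER2 mutant too (log2 fold changes 0.81 and 0.97, adjusted p = 0.0227 and 0.0258), and each was lost in 4 of 7 fits with a library left out. Sesn2 was higher in the double than in the PIK3CA mutant (0.86, adjusted p = 0.0483), a call lost in 9 of 9 such fits.

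Of the ligands and binding proteins, 9 were tested. Against WT, 1 fell in the PIK3CA mutant, 2 in the HER2 mutant and 2 in the double mutant, and none rose. These are 11.1%, 22.2% and 22.2% of the list, beside 4.52%, 10.4% and 11.8% of all genes, of which 3.03%, 5.63% and 6.72% passed as lower. Igf1, the ligand of Igf1r, fell in all 3 mutants, with log2 fold changes of -4.03, -4.39 and -4.32 in the PIK3CA, HER2 and double mutants (adjusted p = 0.00338, 0.00219 and 0.000667). WT had 27.9, 18.5 and 76.2 CPM, and the 13 mutant libraries 0.617 to 4.48. Among the WT libraries Igf1 had the same order as the summed macrophage markers, and the part of such cells in its fall was not tested. Igfbp3, a binding protein that holds IGFs in the extracellular space, was lower in the HER2 mutant than in the PIK3CA mutant (log2 fold change -4.11, SE 0.631, adjusted p = 0.00272) and higher in the double than in the HER2 mutant (log2 fold change 3.89, SE 0.614, adjusted p = 0.0054). Its level was 183, 114, 53.05 and 94.7 CPM in the PIK3CA mutant, 1.02, 5.96, 6.88 and 11.9 in the HER2 mutant and 151, 26.7, 75.5, 102 and 124 in the double mutant. Igfbp2, another of these proteins, did the same, with log2 fold changes of -4.10 (adjusted p = 0.0191) and 4.40 (adjusted p = 0.0194), and was at 10.7 to 27.7, 0.368 to 3.45 and 9.54 to 70.2 CPM in those genotypes. Both Igfbp2 calls were lost without HER2 mutant replicates 1 and 4 (-3.50, adjusted p = 0.0959, and 3.79, adjusted p = 0.0951). When only the double and HER2 mutants were fitted, neither Igfbp2 (adjusted p = 0.0733) nor Igfbp3 (adjusted p = 0.0588) passed.

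Of 33 tested genes of the signal relay, 1 rose and 1 fell in the PIK3CA mutant, 1 rose and 3 fell in the HER2 mutant, and 2 rose and 3 fell in the double mutant against WT. These are 6.06%, 12.1% and 15.2% of the list, beside 4.52%, 10.4% and 11.8% of all genes. Tbc1d4, the AKT substrate that controls glucose transporter traffic, rose in all 3 (log2 fold changes 0.91, 0.72 and 0.67, adjusted p = 0.00135, 0.0045 and 0.00349), from 61.1 to 76.4 CPM in WT to 86.7 to 135 in the mutants. Its double-mutant level was below the sum of the single-mutant changes (interaction -0.96, adjusted p = 0.0177), a call lost without WT replicate 1 or 3 (adjusted p up to 0.0772 over all alternatives). The other interaction calls in the wider lists were above 0: Shc1 (1, adjusted p = 0.0202), Igf1 (4.1, adjusted p = 0.0443) and Gadd45a (1.96, adjusted p = 0.0424). As for the members, a change shared by all tumors cannot be told apart from an interaction. Gab1, a docking protein that like IRS proteins brings PI3K to receptors, fell in the HER2 mutant (log2 fold change -0.91, SE 0.124, adjusted p = 0.000735) and in the double mutant (log2 fold change -0.67, SE 0.117, adjusted p = 0.00162). It was at 71.4, 95.4, 77.9 and 92.9 CPM in the HER2 mutant, beside 139.9, 152, 156 and 148 in the PIK3CA mutant, and the difference was -0.82 (adjusted p = 0.00152). Shc1, an adaptor to the Ras pathway, fell in the PIK3CA mutant (log2 fold change -0.58, SE 0.141, adjusted p = 0.0256) and the HER2 mutant (log2 fold change -0.79, SE 0.141, adjusted p = 0.00349). The former was lost with the offset for GC content and length (-0.42, adjusted p = 0.0939). Eif4ebp1, the mTORC1-controlled brake on translation, rose in the double mutant (log2 fold change 1.24, SE 0.266, adjusted p = 0.00655).

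Of 30 other FOXO target genes tested, 3 rose and 2 fell in the PIK3CA mutant, 3 rose and 5 fell in the HER2 mutant, and 5 rose and 5 fell in the double mutant against WT. Beside 4.52%, 10.4% and 11.8% of all genes, 16.7%, 26.7% and 33.3% of the list passed, in both directions each time; the list was chosen with earlier results of these data known. Tsc22d3, the glucocorticoid-induced leucine zipper, rose in all 3 mutants (log2 fold changes 1.65, 1.62 and 2.55, adjusted p = 0.00264, 0.00279 and 0.000178). It was at 10.2, 12.9 and 9.69 CPM in WT and 50.99, 95.2, 46.8, 68.6 and 57.7 in the double mutant. Trp53inp1, a p53-induced stress protein, rose in the PIK3CA mutant (1.09, adjusted p = 0.00932, lost in 1 of 7 fits with a library left out) and the double mutant (1.15, adjusted p = 0.0027). Bbc3, which encodes the death protein PUMA, rose in the HER2 mutant (0.77, adjusted p = 0.0476) and the double mutant (1.23, adjusted p = 0.00269). The former call was lost without HER2 mutant replicates 1 and 4 (0.78, adjusted p = 0.0884).

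Other targets fell. Pdk4, the kinase that spares pyruvate from oxidation, fell in the PIK3CA mutant (log2 fold change -5.26, SE 1.21, adjusted p = 0.0187), where it was at 0.351 to 1.57 CPM. It also fell in the double mutant (log2 fold change -6.38, SE 1.16, adjusted p = 0.00227), where it was at 0.0709, 0.713, 0.196, 0.536 and 0.467 CPM beside 14.7, 56.1 and 27.9 in WT. It spread over 3.02, 97.2, 12.5 and 0.798 CPM in the HER2 mutant, and was lower in the double than in the HER2 mutant (log2 fold change -6.16, adjusted p = 0.0109). Without HER2 mutant replicates 2 and 3 that Pdk4 difference was -2.27, adjusted p = 0.0641, and when only those genotypes were fitted it was -6.13, adjusted p = 0.0854. The counts behind its double-mutant values were few, since 3 counts in a library are worth 0.0468 to 0.0659 CPM. Gadd45a, a stress gene of growth arrest, fell in the PIK3CA mutant (-1.60, adjusted p = 0.0084) and the HER2 mutant (-1.40, adjusted p = 0.0134), each lost in 1 of 7 fits with a library left out; the latter was also lost without HER2 mutant replicates 1 and 4 (-1.22, adjusted p = 0.069). Over the WT libraries Pdk4 had the same order as the summed fibroblast markers, and Gadd45a the same order as the summed macrophage markers. The part of such cells in the falls of these genes was not tested. Rbl2, the pocket protein p130, fell in the HER2 mutant (-0.57, adjusted p = 0.0151) and the double mutant (-0.65, adjusted p = 0.00365). The former call was lost without HER2 mutant replicates 1 and 4 (-0.47, adjusted p = 0.0573). Tnfsf10, the death ligand TRAIL, was lower in the HER2 than in the PIK3CA mutant (log2 fold change -2.26, SE 0.368, adjusted p = 0.00384) and higher in the double than in the HER2 mutant (log2 fold change 2.28, SE 0.358, adjusted p = 0.00532). Its level was 31.3, 27, 23.5 and 18.99 CPM in the PIK3CA mutant, 3.58, 4.26, 4.72 and 8.43 in the HER2 mutant and 29.2, 13.2, 18.9, 31.2 and 35.1 in the double mutant, which puts it with Igfbp3, Igfbp2 and Foxo1 in being lowest in the HER2 mutant of the 3.

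Of 24 tested regulators of FOXO proteins, none passed in the PIK3CA mutant, 1 fell in the HER2 mutant, and 4 rose and 4 fell in the double mutant against WT. These are 0%, 4.17% and 33.3% of the list, beside 4.52%, 10.4% and 11.8% of all genes. Sirt1, a deacetylase that acts on FOXO proteins, fell in the HER2 mutant (log2 fold change -0.95, SE 0.196, adjusted p = 0.00772) and the double mutant (log2 fold change -0.92, SE 0.185, adjusted p = 0.00427), from 27.1 to 37.5 CPM in WT to 13.3 to 22.2 and 13.9 to 22.8. In the double mutant the nuclear exporter Xpo1 (0.64, adjusted p = 0.0194), the 14-3-3 gamma gene Ywhag (0.62, adjusted p = 0.0284) and the ubiquitin ligase Mdm2 (0.71, adjusted p = 0.0314) rose. These calls were lost in 3, 4 and 5 of 8 fits with a library left out. All 3 were lost without double mutant replicates 2 and 3, with 0.39 (adjusted p = 0.0578) for Xpo1, 0.43 (adjusted p = 0.115) for Ywhag and 0.45 (adjusted p = 0.148) for Mdm2. The acetyltransferase Ep300 (-0.48, adjusted p = 0.0165) and the deacetylase Sirt2 (-0.37, adjusted p = 0.0283) fell there, calls lost in 2 and 4 of 8 fits with 1 library left out and, with the offset for GC content and length, at -0.22 (adjusted p = 0.276) and -0.16 (adjusted p = 0.34). Csnk1a1, a kinase that phosphorylates FOXO proteins next to the AKT sites, was higher in the double than in the HER2 mutant (log2 fold change 0.58, SE 0.106, adjusted p = 0.0111). Without HER2 mutant replicates 1 and 4 it was 0.46, adjusted p = 0.0524, and when only those genotypes were fitted 0.59, adjusted p = 0.146.

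**Figure D4:**
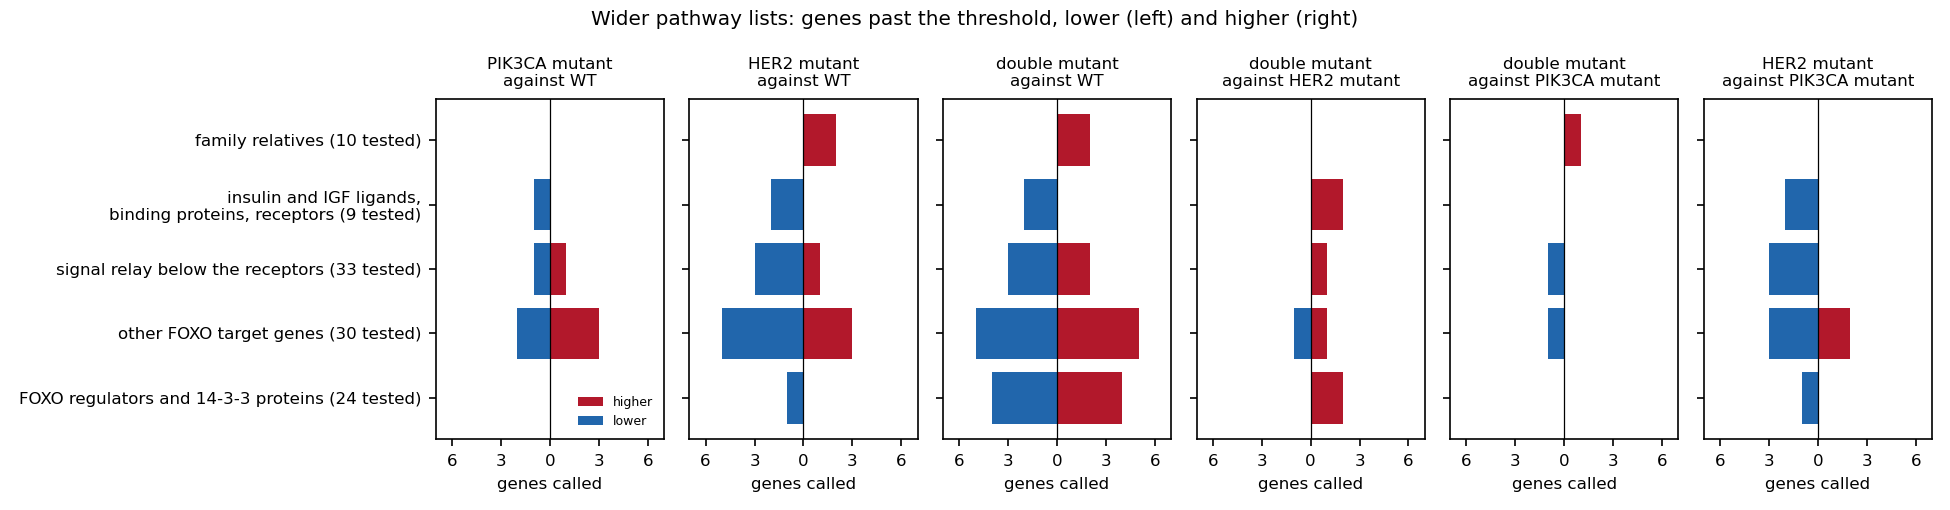
Number of genes past an adjusted p of 0.05 in each wider list and comparison, higher to the right in red and lower to the left in blue; the number of genes tested in each list stands beside its name. The FOXO target list has the most calls against WT, 5 higher and 5 lower in the double mutant, and the regulator list has 4 and 4 there.

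Each member was also matched with the 2 genes whose log2 CPM over the 16 samples was most like its own by Pearson's r; these are descriptions, since all genes share the same libraries and genotypes. Sesn3 was most like Selenop (0.965), the secreted selenium carrier, and Tmem154 (0.946), and Igf1r most like Rnf39 (0.965) and Bcl2l11 (0.935). Bcl2l11 encodes the death protein BIM and is itself in the list of FOXO targets. Ypel3 was most like Grb7 (0.953), an adaptor of receptor tyrosine kinases, and Sema6c (0.936). For Ccng2 the genes were Sbf2 (0.946) and Pfn2 (0.921), for Foxo3 Tgm2 (0.941) and the histone demethylase gene Kdm6b (0.922), and for Foxo4 Stau1 (0.922) and Sbk1 (0.921). For Foxo1 they were Evi5l (0.918) and Mindy2 (0.904), for Irs1 Mrps35 (0.901) and Mkx (0.889), for Insr Acvr2b (0.874) and Fbrs (0.873), and for Irs2 Csrp1 (0.842) and Slain1os (0.804). None of the nearest genes of 1 member was a nearest gene of another, and no member was nearest to another member.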

How the data were processed

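RNA was sequenced from 16 organoid cultures of 4 genotypes. Libraries came from a SMARTer mRNA-seq kit, per the labels' protocols. The submitters' processing notes name bcl2fastq 2.20, STAR 2.0.4b, Subread featureCounts 1.4.5, DESeq2 1.33.5 and mm10; their roles, the strand setting and the annotation are not given in the sources used here. The authors deposited whole-number read counts per gene, and a second table of normalized signal values that a check showed to be the count divided by a DESeq2 size factor (largest relative difference 5.49e-10). The count table's number of transcripts per gene was not used in any test. Of 55774 entries, 287 repeats were dropped.

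Counts were fitted with edgeR 4.0.16 in R 4.3.3 (filterByExpr, TMM factors, glmQLFit and glmQLFTest, two-sided) in a single fit of all 16 samples by genotype; p was adjusted over 24252 genes by the Benjamini-Hochberg method. The SE of a log2 fold change is its size divided by the square root of F. CPM uses TMM factors, and log2 CPM a prior count of 2. Alternatives used limma 3.58.1 on log2 of the deposited signal plus 1, DESeq2 1.42.0, other scalings, no filter, only the genotypes compared, each library left out and, chosen after seeing the data, an offset for GC content and length and libraries left out in pairs. On simulated counts for the PIK3CA mutant against WT, 13.1% of 99 genes changed by 1 and 50% of 98 changed by 2 on the log2 scale were recovered among 24252 genes. The changed genes were few and drawn at random over all levels, so these shares do not give the recovery for the members.

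The members and lists were chosen with earlier results of these data known. Picked from each list were up to 3 called genes per direction and comparison with the lowest adjusted p, and for each member the 2 most similar genes. Not every gene picked from the lists is described above. Those left out are Fbxo32, Trib2, Pink1, Map1lc3b, Cited2, Sfn, Grb14, Pdpk1, Sh2b2, Eif4ebp2 and Igfbp6. Gene positions and lengths are from GENCODE on GRCm38, and promoters from RefSeq.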

Additional observations from a re-analysis of the deposited data

Results flagged for a closer look

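Irs1 in PIK3CA mutant replicate 4, at 189.4 CPM, lay apart from the other 3 libraries of that genotype, which were within 226 to 228 CPM; its gap to the nearest of them was 0.946 of the whole range of the group, above Dixon's 95% critical value for 4 samples. In all, 30 groups of a member and a genotype were looked at in this way, and chance alone gives about 1 in 20 such groups. The value lies within the range of the WT libraries (142 to 219 CPM).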

How the results depend on the processing

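Of 1380 member values under an alternative, 1207 kept their direction and their side of the threshold, 74 lost a call, 54 gained one and 45 changed sign. Of 14 calls between genotypes, 7 held in every fit with 1 library left out and 5 under every alternative run: Foxo3 and Sesn3 in the HER2 mutant against WT, Sesn3 and Ypel3 in the double mutant against WT, and Ypel3 in the double against the PIK3CA mutant. The cause of the changes below was not tested.

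The number of members called in the PIK3CA mutant against WT (1) was 0 with upper-quartile scaling, 4 when only the genotypes compared were fitted and 2 with an offset for GC content and length, and 0 to 0 over fits with 1 library left out. In the HER2 mutant against WT (2) it was 5 without HER2 mutant replicates 2 and 3, and 2 to 3 over single libraries left out. In the double mutant against WT (3) it was 5 with DESeq2 and 2 to 4 over single libraries. In the double against the HER2 mutant (3) it was 0 when only those genotypes were fitted, 1 with limma and 0 to 2 over single libraries. In the double against the PIK3CA mutant (2) it was 1 without a filter on low counts, 4 with DESeq2, 1 with the offset and 1 without double mutant replicates 2 and 3, and 1 to 2 over single libraries. In the HER2 against the PIK3CA mutant (3) it was 1 without HER2 mutant replicates 1 and 4, and 2 to 3 over single libraries. For the interaction (0) it was 4 with DESeq2, 3 with the offset, 4 without double mutant replicates 2 and 3, 2 without HER2 mutant replicates 1 and 4, 2 without HER2 mutant replicates 2 and 3, and 0 to 2 over single libraries.

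With a replicate block, the counts were 0 in the PIK3CA mutant against WT, 0 in the double against the HER2 mutant and 1 in the double against the PIK3CA mutant; with the replicate block and the offset for GC content and length the last 2 were again 0 and 1. Among the calls given for other genes, the block ended those of Pdk4, Igfbp2 and Csnk1a1 in the double against the HER2 mutant and Sesn2 against the PIK3CA mutant. Against WT it ended those of Ywhag and Sirt2 in the double and of Sesn2 and Bbc3 in the HER2 mutant. In the interaction it ended those of Tbc1d4, Shc1, Igf1 and Gadd45a. The labels do not say that a number links samples, and the numbers were not taken as pairs: same-numbered double and HER2 mutant samples correlated at 0.071 to 0.273 (mean 0.157, against -0.041 for other numbers), and the other pairs of genotypes at -0.163 to 0.149.

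Log2 fold changes that changed sign follow. Igf1r was 0.02 in the PIK3CA mutant against WT with the block and offset, 0.02 in the HER2 mutant against WT and 0.21 against the PIK3CA mutant without HER2 mutant replicates 1 and 4, 1.21 in the double against the HER2 mutant and 1.4 for the interaction without HER2 mutant replicates 2 and 3, and 0.11 for the interaction with limma (-0.82 to 0.11 over single libraries). Irs2 in the HER2 mutant against WT was 0.02 with upper-quartile scaling, 0 in the fit of those genotypes, 0.19 with the offset, 0.14 with block and offset, 0.2 without HER2 mutant replicates 2 and 3 and -0.18 to 0.21 over single libraries. Irs2 was -0.24 in the double mutant against WT (-0.12 to 0.19 over single libraries) and -0.22 against the HER2 mutant (-0.16 to 0.23) without double mutant replicates 2 and 3, -0.15 against the HER2 mutant without HER2 mutant replicates 2 and 3, and 0.09 for the interaction without HER2 mutant replicates 1 and 4. In the double mutant against WT, Insr was 0.03 with the offset and 0.02 with block and offset, Irs1 0.05 with the offset and 0.08 without double mutant replicates 2 and 3 (-0.35 to 0.04 over single libraries), and Ccng2 -0.1 without those replicates. In the double against the PIK3CA mutant, Foxo1 was 0.03 with the offset and 0.12 without those replicates (-0.19 to 0.07), Foxo3 0.02 with the offset and 0.06 with block and offset (-0.16 to 0.03), and Ccng2 -0.07 with limma and -0.5 without those replicates (-0.18 to 0.16). Irs1 was -0.13 in the HER2 against the PIK3CA mutant and Foxo4 -0.04 in the HER2 mutant against WT without HER2 mutant replicates 1 and 4, and Foxo4 was 0.12 in the HER2 against the PIK3CA mutant without HER2 mutant replicates 2 and 3.

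Over all genes, the offset moved the median log2 fold change by 0.14 in the PIK3CA and the double mutant against WT, and the share of calls that were higher from 33% to 52.7% (PIK3CA mutant), 45.8% to 62.8% (HER2 mutant), 42.8% to 65.2% (double mutant) and 48.6% to 37.2% (interaction). In the double against the HER2 mutant that share went from 41.1% to 30.2% with upper-quartile scaling. The number of genes called was 1096 in the PIK3CA mutant against WT, 1774 with DESeq2 and 4136 when only those genotypes were fitted; for the HER2 mutant against WT it was 2518, and 541 in such a fit. It was 606, 1645 and 37 in the double against the HER2 mutant (118 with the replicate block), 163, 611 and 364 in the double against the PIK3CA mutant (19 with the block), and 1069, 2113 and 534 in the HER2 against the PIK3CA mutant (552 with the block). For the interaction it was 257, 916 with DESeq2 and 35 with the block. It was 2850 in the double mutant against WT, and 1173 without WT replicate 3. Settings with the offset or with libraries left out in pairs were chosen after seeing the data. The members themselves had at least 1170 counts in each library.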
